A study of Arabidopsis thaliana with 4 samples.

Results

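The genes described here are 39 protein-coding loci of the Arabidopsis thaliana chloroplast (plastid) genome, out of 27416 genes measured. They were chosen by name from the annotation, by a rule that uses no measured value though earlier results of these data were known, as the plastid genes for ribosomal proteins (rps and rpl), RNA polymerase subunits (rpo), matK, clpP, accD and ycf1 to ycf5, and they were found in the tables by their locus codes. In the RefSeq TAIR10.1 annotation of the plastid genome, which is 154478 bases long, the same choice of names gives 14 rps, 11 rpl, 4 rpo and 7 ycf entries and 1 each of matK, clpP and accD. Transcripts were sequenced from whole seeds of the ecotype Columbia (Col-0) that held embryos at the post-mature green stage, the stage at which the embryo is filled with reserves and begins to lose its green colour. The wild type and the ddcc mutant were each represented by 2 libraries described as biological replicates, from plants grown in a greenhouse. The label ddcc is the usual name of the drm1 drm2 cmt2 cmt3 mutant, which lacks enzymes that methylate cytosines outside CG sites in nuclear DNA. Because seeds were taken whole, embryo, endosperm and seed coat RNA were measured together, and more plastid-rich cells could not be told apart from more plastid RNA per cell.

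The plastid genome is transcribed by a bacterial-type RNA polymerase, whose core subunits are the rpo gene products, and by phage-type polymerases imported from the nucleus. The core works with sigma factors and associated proteins that are nuclear-encoded, and many genes are transcribed together and then cut apart and spliced, for which matK encodes a maturase. Ribosomes of the plastid combine plastid-encoded rps and rpl proteins with nuclear-encoded ones. ClpP is a proteolytic subunit of the stromal Clp protease, accD encodes a subunit of the acetyl-CoA carboxylase that starts fatty acid synthesis, and in seeds that enzyme feeds oil storage. The ycf genes have mixed roles, among them the assembly of photosystem I (ycf3, ycf4) and of cytochromes (ycf5).

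Names are given here to 3 of the 39 locus codes, because notes in the RefSeq annotation pair those codes with a protein. These are ATCG00670 (clpP, the Clp protease subunit), ATCG00660 (rpl20, a protein of the large ribosomal subunit) and ATCG01310 (rpl2, another protein of that subunit). The other loci are called by their codes. The first 60 coding bases of the named genes are shown because rpl20 and clpP had small differences between the genotypes and rpl2 was listed at 0. They are from RefSeq TAIR10.1, written 5′ to 3′ on the coding strand, with the start codon in capitals.
clpP (plastid 71823 to 71882, minus strand): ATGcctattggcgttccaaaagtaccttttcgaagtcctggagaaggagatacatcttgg
rpl20 (plastid 68806 to 68865, minus strand): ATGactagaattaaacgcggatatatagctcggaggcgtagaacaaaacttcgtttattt
rpl2, first copy (plastid 85784 to 85843, minus strand): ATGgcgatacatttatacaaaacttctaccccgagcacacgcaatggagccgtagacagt
rpl2, second copy (plastid 152806 to 152865, plus strand): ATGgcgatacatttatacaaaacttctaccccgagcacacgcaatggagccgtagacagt
The whole genes lie at 69910 to 71882 for clpP, 68512 to 68865 for rpl20, and 84337 to 85843 and 152806 to 154312 for rpl2. The clpP gene has 3 coding parts with introns between them, and rpl2 has 2, whereas rpl20 has 1. The rpl2 copies were identical over all 1507 bases, with 0 mismatches.

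The deposited values were normalised read counts, not divided by gene length. The reads behind them, recovered from the values, totalled 1122934 and 1166635 for ddcc, and 3416071 and 1292023 for wild-type replicates 1 and 2. Across genes the log2 values correlated at 0.95 within each genotype and at 0.91 to 0.92 between genotypes. DRM2, a methyltransferase gene mutated in ddcc, was at 4.85 and 8.33 in ddcc, against 39.3 and 39.6 in the wild type, a log2 fold change (log2 change below) of -2.36 (SE 0.39, adjusted p = 0.00347, limma), so both wild-type libraries stood apart from ddcc as labelled. Without 1 library the log2 change of DRM2 was -2.67 to -2.04, with adjusted p-values of 0.0597 to 0.311 (limma). The check of DRM2 matters because the source name of wild-type replicate 2 says ddcc, against its title, description and genotype. The other targeted genes gave no such check, since DRM1 was listed at 0 in every library, CMT2 was too low to be tested, and CMT3 was at 1.20 and 1.23 against 4.65 and 0.177 (log2 change -0.24, adjusted p = 0.891, limma).

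The plastid loci as a group were higher in ddcc seeds. Of the 39 loci, 9 were listed at 0 in every library and 30 were tested. All 30 had a higher log2 mean in ddcc in the deposited values and under the other scalings tried, except that 22 did with equal plastid totals. As deposited, 15 rose at an adjusted p under 0.05 and 0 fell. Of all 15780 genes tested, 3.03% were called higher and 6.48% in either direction. The test was a moderated linear model in limma on log2(value + 1.56), fitted over all genes with Benjamini-Hochberg adjustment. At an unadjusted p under 0.05, 24 of the 30 were higher, against 10.1% of all genes tested. The median log2 change of the 30 was 0.87, from 0.17 to 1.48, while the median of all genes tested was 0.02. In linear terms the ratio of means, ddcc over wild type, had a median of 1.83 and ranged from 1.12 to 3.24, and 8 loci were above 2.

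Both ddcc libraries lay above both wild-type libraries in 27 of the 30 loci, an order seen in 25.7% of all genes tested. The exceptions were ATCG00640, ATCG00650 and ATCG01000. The libraries of a genotype were not interchangeable. Wild-type replicate 2 was below replicate 1 at 25 of the 30 loci, with a median log2 difference of -0.37, and ddcc replicate 2 was above replicate 1 at 20, with a median of 0.11. The calls rested on this small number of libraries. Leaving out either ddcc replicate left 0 of the 30 called by limma, with 20 and 16 higher at an unadjusted p under 0.05 without replicate 1 and replicate 2, where 5.19% and 5.05% of all genes were. Without wild-type replicate 1 there were 13 calls and without wild-type replicate 2 there was 1. Of all genes tested, 0.0194% and 0.00641% were called higher without ddcc replicate 1 and 2, and 1.73% and 0.967% without wild-type replicate 1 and 2. In these fits the lone library of a genotype is assumed to vary like the other genotype. The median log2 change of the 30 was 0.84 to 0.91 without a ddcc library, 1.05 without wild-type replicate 1 and 0.72 without wild-type replicate 2.

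**Figure D1:**
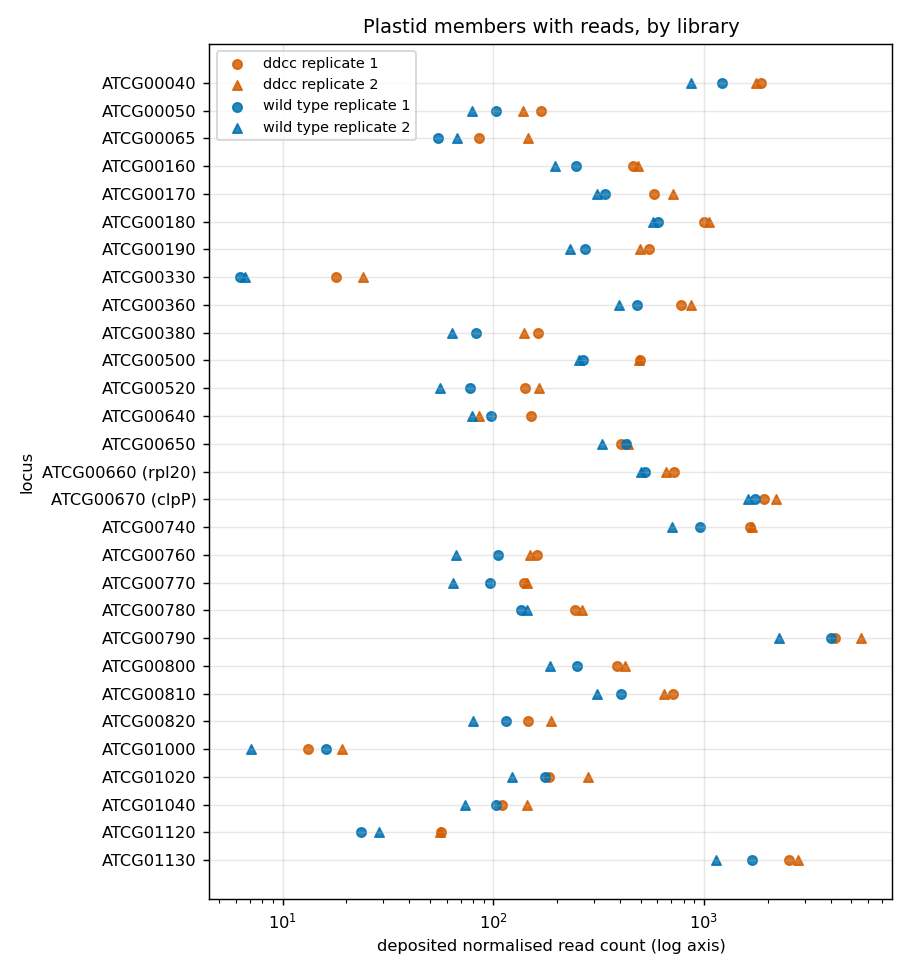
Deposited normalised read count (log axis) of 29 of the 30 plastid loci with reads, in the 4 libraries. Orange symbols are ddcc and blue symbols wild type, with circles for replicate 1 and triangles for replicate 2. At 26 of the loci shown both orange symbols lie to the right of both blue ones.

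Of the named genes with reads, clpP and rpl20, neither passed the test. The difference at clpP was small. Its count was 1916 and 2201 in ddcc and 1746 and 1624 in the wild type, so the genotypes did not overlap but lay close together. The log2 change of 0.29 (SE 0.23) did not pass the test (adjusted p = 0.528, limma).

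The ribosomal protein gene rpl20 was measured at 716.3 and 660.4 in ddcc, against 526.0 and 500.1 in the wild type. Both ddcc values were above both wild-type values, with a log2 change of 0.42 (SE 0.21, adjusted p = 0.27, limma). Divided by the length of coding sequence alone, clpP was above rpl20 in every library. Whether reads in the introns of clpP were counted is not given, and rpl20 has no intron. The order of these genes therefore depends on the length chosen. It stood at 3241 and 3724 normalised counts per kilobase in ddcc, against 2955 and 2748 in the wild type. The level of rpl20 was 2023 and 1866 per kilobase in ddcc and 1486 and 1413 in the wild type. By coding length the order was thus the same in all 4 libraries, and whole gene length was not used.

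The gene rpl2 was listed at 0 in every library, as were ATCG00830, ATCG00840, ATCG00860, ATCG00900, ATCG00905, ATCG01240, ATCG01280 and ATCG01300. In RefSeq, 13 of the 39 entries had a copy elsewhere in the plastid genome, counted at 95% identity or more over 100 bases or more. A further check of the other genomes found such a copy of 3 entries in the mitochondrial genome and of 7 in the nuclear chromosomes, and 22 had none in any of these. No such copy was found of rpl20 or clpP. How reads that match several places were counted is not given in the sources used here, so a 0 at these loci cannot be read as no RNA, and levels of loci with copies are uncertain. The kit and counting are also not stated to keep the strand, and 3 of the 39 entries overlap another protein-coding gene.

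Of the loci known only by code, the largest call was ATCG00520. It was at 140.6 and 164.3 in ddcc, against 77.8 and 56.0 in the wild type, a log2 change of 1.18 (SE 0.25, adjusted p = 0.0131, limma). Neither wild-type library reached the lower ddcc value. ATCG00160 followed with 459.2 and 488.5 against 247.7 and 195.8 and a log2 change of 1.10 (SE 0.22), and it had the smallest adjusted p of the group, 0.0093 (limma).

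ATCG01120 was the lowest in level of the 15 that rose, at 56.6 and 55.7 in ddcc against 23.6 and 28.8 in the wild type. Its log2 change was 1.06 (SE 0.29, adjusted p = 0.0447, limma), and it rested on 94 reads in ddcc and 67 in the wild type. ATCG01130 was the highest in level, at 2534 and 2791 against 1682 and 1139, with a log2 change of 0.94 (SE 0.25, adjusted p = 0.0385, limma). The wild-type libraries of ATCG01130 were far apart from each other, but neither reached the ddcc values.

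ATCG00740 was also abundant and rose, with 1655 and 1693 in ddcc against 952.4 and 706.4 in the wild type and a log2 change of 1.03 (adjusted p = 0.0166, limma). ATCG00180 reached 1003 and 1050 against 604.6 and 571.3. Its log2 change of 0.80 (SE 0.21, adjusted p = 0.0366, limma) was the smallest among the 15. The calls therefore covered loci of low and of high level, and their log2 changes lay between 0.80 and 1.18.

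A further 8 calls followed the same order of libraries. ATCG00190 was at 547.5 and 496.0 against 273.5 and 231.2. ATCG00380 was at 162.7 and 139.3 against 82.9 and 63.8. ATCG00170 was at 579.7 and 714.4 against 339.7 and 310.2. The ddcc replicates of ATCG00170 were further apart than its wild-type replicates. ATCG00810 was at 713.9 and 647.2 against 402.4 and 311.9. ATCG00500 was at 499.2 and 491.0 against 267.3 and 256.0. ATCG00360 was at 776.7 and 866.9 against 478.7 and 394.9. In each of these 6 loci the lower ddcc library was above the higher wild-type library. ATCG00800 was at 387.2 and 419.5 against 248.9 and 186.6. ATCG00780 was at 243.2 and 262.3 against 135.8 and 145.0. Across these 8 loci the log2 changes were between 0.84 and 1.05 and the adjusted p-values between 0.0111 and 0.0337 (limma).

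**Figure D2:**
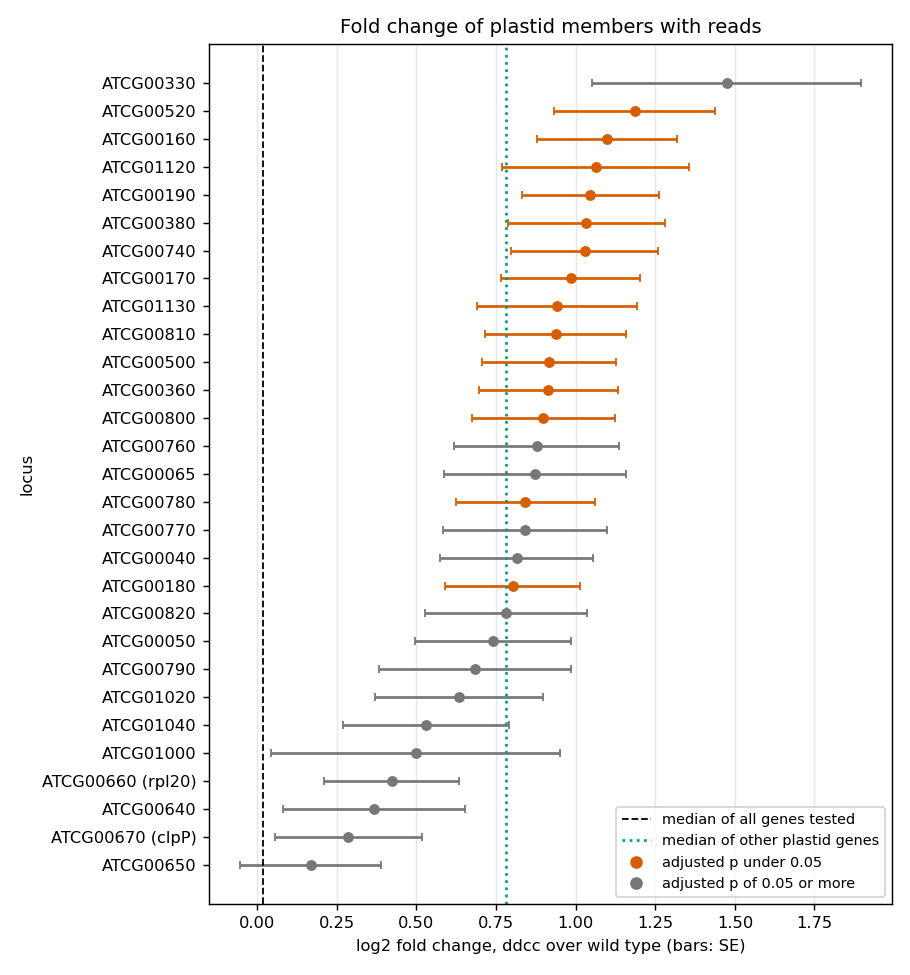
Log2 fold change, ddcc over wild type, of 29 of the 30 plastid loci with reads, ordered by size, with bars of 1 standard error. Orange points passed the test and grey points did not. The dashed line is the median of all genes tested (0.02) and the dotted line that of the other plastid genes (0.78), and all 29 points lie to the right of 0 in the deposited values, while with equal plastid totals 8 loci lay below 0.

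Among the 15 loci that did not pass the test was the one with the largest log2 change, ATCG00330. It was at 17.9 and 24.01 in ddcc, against 6.31 and 6.60 in the wild type, on 35 and 17 reads. The genotypes did not overlap, but the log2 change of 1.48 had a standard error of 0.42 and an adjusted p of 0.0518 (limma). ATCG00790 had the highest level of all 30, at 4183 and 5577 in ddcc and 3990 and 2266 in the wild type. Its replicates differed so much within each genotype that the log2 change of 0.68 (SE 0.30) had an adjusted p of 0.207 (limma).

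ATCG00040 was at 1854 and 1771 against 1222 and 867.5, a log2 change of 0.81 (SE 0.24) with an adjusted p of 0.0586 (limma). With ATCG00330 and ATCG00040, 7 of the 15 had an adjusted p between 0.05 and 0.1. The others of these were ATCG00050, ATCG00065, ATCG00760, ATCG00770 and ATCG00820, with log2 changes of 0.74 to 0.88. ATCG01020 was at 183.4 and 282.4 against 175.3 and 122.1, and ATCG01040 at 110.1 and 144.8 against 103.4 and 73.2. At these 2 loci the lower ddcc library was only just above the higher wild-type library.

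At 3 loci the genotypes overlapped. ATCG00650 was at 404.9 and 435.3 in ddcc, against 424.2 and 329.0 in the wild type, a log2 change of 0.17 (adjusted p = 0.722, limma). ATCG00640 was at 151.6 and 85.3 against 97.2 and 79.5, and only ddcc replicate 1 was above both wild-type libraries. Its log2 change was 0.37 (adjusted p = 0.505, limma). ATCG01000 was at 13.2 and 19.2 against 16.1 and 7.12, on 27 reads in ddcc and 34 in the wild type, and its log2 change of 0.50 had a standard error of 0.45. The low depth at ATCG01000 could not show a difference of this size.

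The 4 smallest log2 changes of the 30 were those of ATCG00640, ATCG00650, ATCG00660 (rpl20) and ATCG00670 (clpP), a run of adjacent codes that was noticed after the values were seen. In RefSeq, rpl20 and clpP lie on the same strand, with the first coding part of rps12 at 69611 to 69724 between them. Small changes were not limited to this run. Among the other plastid genes log2 changes ranged from -0.44 to 1.33, with 0.14 for ATCG00300 and 0.21 for ATCG00020. The difference between this run and the other loci was not tested.

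Summed over the 39 loci, the normalised count was 20349 and 22609 in ddcc and 14764 and 10999 in the wild type, or 21479 ± 1599 against 12882 ± 2663 (SD, n = 2), a ratio of 1.67. The difference of log2 sums was 0.75, with an exact two-sided permutation p of 0.333, the smallest that 2 against 2 libraries can give. The deposited values of all genes totalled 1325381 and 1410907 in ddcc and 1815256 and 1705082 in the wild type. These totals were unequal, so the ratio of sums and the shares of reads are on different scales. As a share of all reads, the loci made up 1.54% (95% exact interval 1.51 to 1.56) and 1.60% (1.58 to 1.63) in ddcc and 0.813% (0.803 to 0.822) and 0.645% (0.631 to 0.659) in the wild type. The intervals cover counting error alone. The difference between the wild-type libraries was larger than their counting error but smaller than the gap to ddcc.

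**Figure D3:**
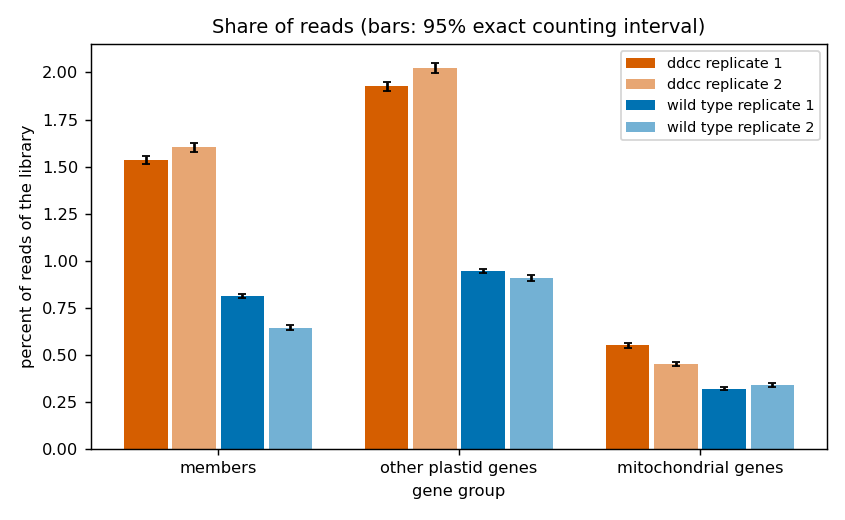
Percent of each library's reads that fell in the 39 loci (members), in the other plastid genes and in mitochondrial genes, with 95% exact counting intervals. The 39 loci held 1.54% and 1.60% of the ddcc reads and 0.813% and 0.645% of the wild-type reads, and the other plastid genes showed the same order of libraries.

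The other 49 protein-coding plastid genes gave similar values. Among them 5 were listed at 0 and 44 were tested, 18 of which were called higher (40.9%) and 0 lower, with a median log2 change of 0.78. The sum of the 39 loci divided by that of these other genes was 0.797 and 0.792 in ddcc and 0.859 and 0.712 in the wild type. The log2 difference of this ratio was 0.02, with an exact two-sided permutation p of 1.0. The wild-type values enclosed the ddcc values, so these libraries showed no difference between the loci and the rest of the plastid genes beyond the spread between replicates. Mitochondrial genes, the other organelle set, had 1 call among 42 tested (2.38%) and a median log2 change of 0.36. Their share of reads was 0.549% and 0.451% in ddcc and 0.320% and 0.339% in the wild type.

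Within the plastid RNA the shares of single loci differed in direction. Of the 30 loci, 12 took a larger share of plastid reads in both ddcc libraries than in both wild-type libraries, and 3 took a smaller share, namely ATCG00650, rpl20 and clpP. Among the 44 other plastid genes with reads, 14 took a larger and 14 a smaller share in this way (31.8% each), so a smaller share was no particular feature of the 3 loci, whose values follow as a description. The share of clpP was 4.18% (95% exact interval 3.98 to 4.38) and 4.30% (4.11 to 4.50) in ddcc, and 5.47% (5.29 to 5.66) and 6.15% (5.82 to 6.49) in the wild type. None of the ddcc intervals reached a wild-type interval, although counting error does not include the variation between seeds. For rpl20 the share was 1.56% and 1.29% in ddcc and 1.65% and 1.89% in the wild type, and the intervals of ddcc replicate 1 (1.44 to 1.69) and wild-type replicate 1 (1.55 to 1.75) overlapped. ATCG00650 took 0.882% and 0.851% of plastid reads in ddcc and 1.33% and 1.24% in the wild type, with no overlap between the genotypes. When libraries were instead scaled to equal plastid totals, which sets the plastid genes' common rise aside by construction, 0 of the 30 loci were called by limma, 1 had an unadjusted p under 0.05 (lower in ddcc), and 22 had a higher mean in ddcc. On that scale the log2 change was -0.45 for clpP, -0.31 for rpl20 and -0.57 for ATCG00650. On the same scale 31.4% of all genes were called, 1.47% higher and 29.9% lower in ddcc.

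**Figure D4:**
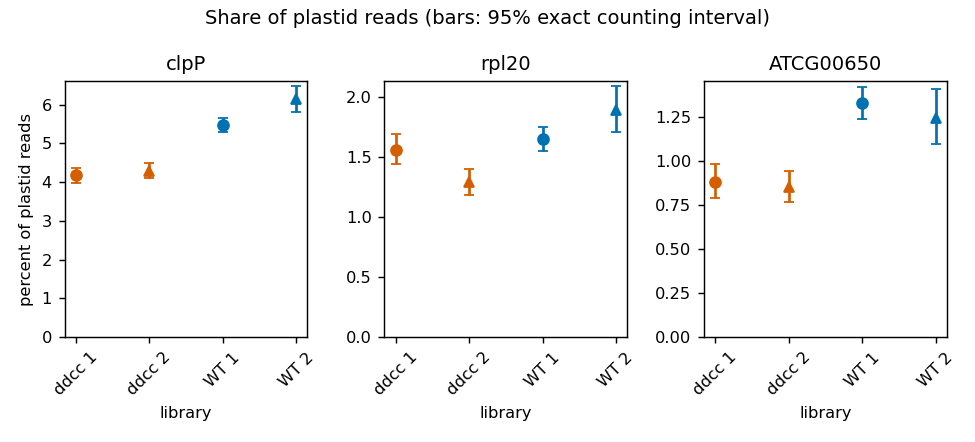
Percent of all plastid reads that fell in clpP, rpl20 and ATCG00650, by library, with 95% exact counting intervals (WT, wild type; vertical axes start at 0 and differ between panels). The ddcc shares of clpP, 4.18% and 4.30%, lie below the wild-type shares of 5.47% and 6.15%, and those of ATCG00650, 0.882% and 0.851%, lie below 1.33% and 1.24%.

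The nuclear genes whose products act with these plastid genes showed few calls. Of 83 such genes in 6 lists, 82 were tested, 4 were called higher and 1 lower (6.1%, against 6.48% of all genes), with a median log2 change of 0.33. Both ddcc libraries lay above both wild-type libraries in 42 of the 82 and below them in 11. The first order was seen in 25.7% of all genes tested, and the second in 3994 of the 15780. At an unadjusted p under 0.05 (limma), 16 of the 82 were higher and 4 lower. Of all genes tested, 10.1% were higher in this way, and 1759 of the 15780 were lower. The calls in these lists were lost or reduced without 1 library, to 0 without either ddcc replicate (11 and 9 at an unadjusted p under 0.05 without replicate 1 and 2, limma) and to 1 without either wild-type replicate.

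In the list of phage-type polymerases and sigma factors 0 of 8 were called by limma and 1 was higher at an unadjusted p under 0.05, with a median of 0.24. The gene of highest level, SCA3 (the plastid phage-type polymerase RPOTp), was at 84.0 and 102.6 in ddcc and 74.8 and 75.2 in the wild type, a log2 change of 0.30 (adjusted p = 0.536, limma). Among the proteins associated with the bacterial-type polymerase 1 of 12 rose, with a median of 0.48. This was PTAC7, at 11.8 and 9.76 against 2.30 and 0.0928, with a log2 change of 2.28 (SE 0.60, adjusted p = 0.0349, limma) that rested on 18 reads in ddcc and 4 in the wild type. The call was lost with voom on the recovered reads (adjusted p = 0.0706, limma). The most abundant of them, PTAC6, was at 289.0 and 250.6 against 383.6 and 315.7 (log2 change -0.37, adjusted p = 0.366, limma).

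Of the nuclear-encoded plastid ribosomal proteins, 33 of 34 were tested, 2 rose and 1 fell, with a median of 0.33. RPL12-C, a protein of the large subunit's stalk, was at 42.4 and 37.6 in ddcc and 17.1 and 14.7 in the wild type (log2 change 1.25, adjusted p = 0.0364, limma), though it has close paralogues that could share its reads. AT5G47190, annotated as a ribosomal protein of the L19 family, was at 14.2 and 14.5 against 0.327 and 2.47 (log2 change 2.53, SE 0.56, adjusted p = 0.0154, limma). It had 24 reads in ddcc and 3 in the wild type, a ratio per total reads of 16.5 with a 95% counting interval of 5.0 to 85.3, and its log2 change was 2.00 without wild-type replicate 1 and 3.11 without wild-type replicate 2. EMB3126, a plastid ribosomal protein of the L1 type and the most abundant of the list, was at 163.1 and 200.5 against 391.2 and 305.3 and fell (log2 change -0.93, SE 0.23, adjusted p = 0.0261, limma). The call of EMB3126 depended on the scaling. It was lost under quantile normalisation (log2 change -0.71, adjusted p = 0.0666, limma) and with equal nuclear totals (-0.54, adjusted p = 0.139, limma). It held with equal plastid totals (-1.66, adjusted p = 1.11e-04, limma), a scale on which 29.9% of all genes tested were called lower.

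None of the 13 nuclear Clp protease subunits was called by limma, and 0 had an unadjusted p under 0.05, with a median log2 change of -0.02. The chaperone gene CLPC1 was at 1062 and 1113 in ddcc and 984.0 and 1226 in the wild type, and its genotypes overlapped. The 4 nuclear subunits of the plastid acetyl-CoA carboxylase had a median log2 change of 0.90, and 1 was called. This was CAC2, the biotin carboxylase, which rose from 5.15 and 6.52 in the wild type to 20.1 and 21.7 in ddcc. Its log2 change of 1.61 (SE 0.42, adjusted p = 0.036, limma) rested on 35 reads in ddcc and 15 in the wild type. CAC3, the alpha subunit of the carboxyltransferase, was at 66.0 and 58.2 against 47.3 and 34.8 (log2 change 0.59, adjusted p = 0.247, limma). In the list of photosystem and cytochrome assembly factors, import proteins and partners of Ycf2, 0 of 12 were called by limma and 7 had an unadjusted p under 0.05, 6 of them higher, with a median of 0.75. The gene of highest mean over all libraries, though not within ddcc, was CcdA, which acts in cytochrome assembly. It was at 154.8 and 178.8 in ddcc and 243.3 and 242.8 in the wild type (log2 change -0.54, adjusted p = 0.167, limma). Among those 7 genes CcdA was the lower gene, so it does not stand for the list.

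**Figure D5:**
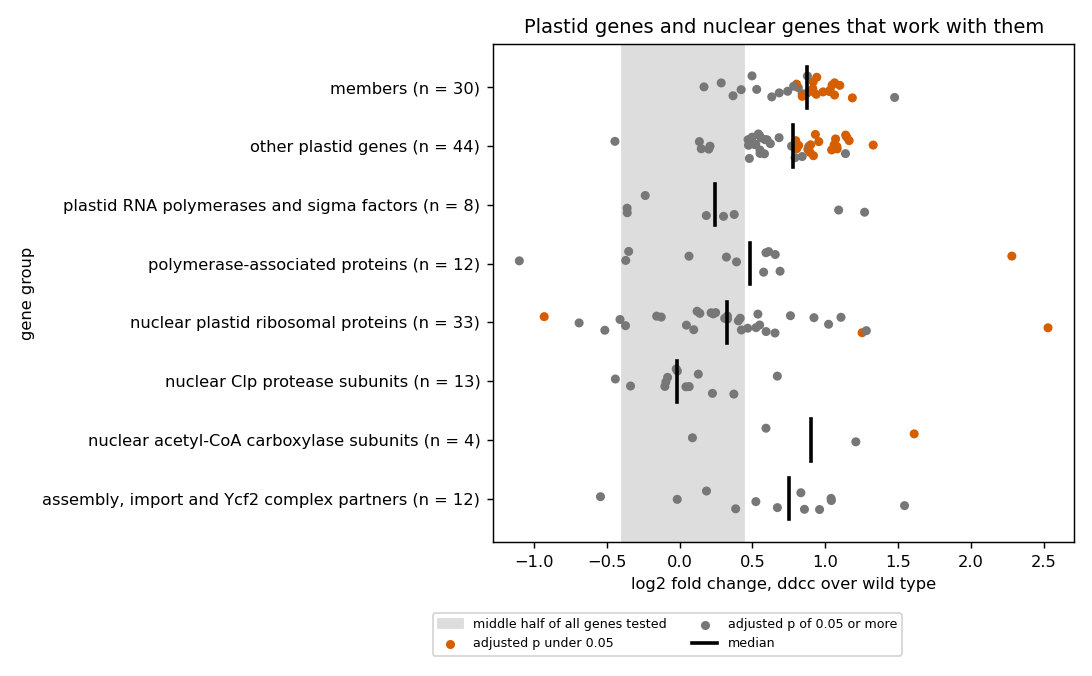
Log2 fold change, ddcc over wild type, of the tested genes among the 39 plastid loci (members), the other plastid genes and 6 lists of nuclear partner genes. Each point is a gene, orange where it passed the test, black bars are medians, and the grey band spans the quartiles of all genes tested (-0.39 to 0.44). The median of the 39 loci is 0.87 and that of the Clp subunits -0.02.

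Among the marker genes of tissues, 1 gene was called. Of 12 nuclear genes of green tissue, 3 (RBCS1B, LHCB2.1 and PETE1) were listed at 0 in every library, 4 were tested and 1 rose. It was RBCS1A, a small subunit of Rubisco, at 69.7 and 71.3 in ddcc and 4.74 and 11.4 in the wild type. Its log2 change was 2.995 (adjusted p = 5.46e-04, limma), and 2.483 to 3.525 when a library was left out. Without a variance trend the call was lost (adjusted p = 0.0719, limma). The summed level of the list was 78.1 and 82.1 in ddcc and 15.7 and 23.3 in the wild type, most of it RBCS1A, whose reads could be shared with its close paralogues. The other tested genes of this list, LHCA1, LHCA3 and PSAD-1, had log2 changes of 0.08, 0.13 and -1.24. Of 9 seed storage genes 0 were called by limma (3 had an unadjusted p under 0.05, and in 2 of them ddcc was lower). Both ddcc libraries lay below both wild-type libraries in 7 of the 9 and above them in 1. Of all 15780 genes tested, 3994 lay below and 4055 above in this way. The seed storage genes summed to 68434 and 75684 in ddcc against 101032 and 81877 in the wild type. Seed coat genes summed to 115.7 and 107.6 against 110.6 and 41.8, with BAN and TT8 listed at 0. Genes of silique wall and flower summed to 2.40 and 3.61 against 3.37 and 0.141, with AGL8 listed at 0, and pollen genes to 10.5 and 7.38 against 6.16 and 7.84, with sks14 listed at 0. The part of tissue makeup, stage or storage RNA in the plastid result was not tested.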

How the data were processed

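RNA was from frozen whole seeds, treated with DNase. About 25 ng was, per the labels' protocols, amplified by the NuGEN Ovation system, and the cDNA was made into libraries with a TruSeq DNA kit. Bowtie 0.12.7, edgeR 3.10.5 and TAIR10 are named in the submitters' processing notes, without settings or roles. Each deposited table holds a signal, a normalised read count per gene. Within each genotype the authors' deposited values followed edgeR's equalisation of library sizes. Inverting it gave whole reads (tolerance 0.01) for 100% of value pairs. The reads served for depth, shares and voom. Since values did not lie on even steps, a count test planned for such values was not run.

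Log2(value + 1 unit) was tested with limma 3.58.1 in R 4.3.3 with a variance trend, 1 unit being 1.56, or 1e6 times less than the average total of a column. A mean of 1 unit or more was required, which left 15780 of 27416 genes, and a gene was called at an adjusted p under 0.05. Such fold changes understate changes of low genes. Data with 15780 genes were simulated on the model of these libraries. Of 100 genes changed by a log2 of 2, 65 were called, and of 100 changed by 3, 87 were. The same calls held 18 of the 15580 unchanged genes. Detection of changes as small as those of the 30 tested loci, all below a log2 of 2, was not tested. Copies were searched with BLAST+ 2.17.0 in RefSeq TAIR10.1; the tables hold no coordinates, so all positions are from that assembly. The genes and lists were chosen with earlier results of these data known. Counts and sums cover all 39 loci, of which 1 is not reported singly here. Named were the other loci (summarised in part), the targeted methyltransferases and, per partner list, up to 5 called genes by p and the gene of highest mean; marker genes were named besides this. Alternatives covered pseudocount, filter, scaling, trend, robust moderation, replicate block, voom and leaving out each library. Wild-type replicate 2 was kept as wild type, although its source name says ddcc. The headers of both wild-type tables name replicate 2, yet the tables hold different values. The replicates are labelled biological, and no label says which plants they came from.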

Additional observations from a re-analysis of the deposited data

How the results depend on the processing

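With 2 libraries per genotype, the direction was steadier than the calls. The number of the 39 loci called was 15 to 19 under both other pseudocounts, a filter at 5 units, robust moderation, the replicate block and voom. It was 3 without a filter, 24 under quantile normalisation, 26 with equal nuclear totals, and 0 with equal plastid totals or without a trend (19 at an unadjusted p under 0.05), and 0 to 13 when a library was left out. The settings with 15 to 19 calls had 2.74% to 4.25% of all genes tested called higher. That share was 0.967% without a filter, 3.71% under quantile normalisation and 9.05% with equal nuclear totals. With equal plastid totals it was 1.47%, and without a trend 0.203%. The median log2 fold change of the loci was 1.14 under quantile normalisation, 1.26 with equal nuclear totals and 0.15 with equal plastid totals. When a library was left out this median was 0.72 to 1.05. Equal nuclear totals moved the median of all genes from 0.02 to 0.38, and the loci's median lay 0.86 above that of all genes as deposited, 0.89 with equal nuclear totals, 1.15 under quantile normalisation and 0.80 with equal plastid totals. The log2 difference of sums was 1.15 with equal nuclear totals and 0.54 to 0.96 when a library was left out, and that of the ratio to other plastid genes -0.11 to 0.16. Nuclear partner calls numbered 0 without a filter (19 at an unadjusted p under 0.05, limma), 0 without a trend (15), 17 with equal nuclear totals (all higher), and 0 to 1 when a library was left out. Calls over all genes, 1023 as deposited, numbered 336 without a filter, 1642 with equal nuclear totals, 33 without a trend and 1 to 455 when a library was left out. The share of calls that were higher was 46.7% as deposited, 57.2% under quantile normalisation and 87.4% with equal nuclear totals. Equal plastid totals turned the log2 fold change to -0.36 for ATCG00640, -0.57 for ATCG00650, -0.31 for ATCG00660, -0.45 for ATCG00670, -0.053 for ATCG00790, -0.15 for ATCG01000, -0.10 for ATCG01020 and -0.20 for ATCG01040, which follows from removing the plastid genes' common rise. When a library was left out, ATCG00640 ranged from -0.042 to 0.78, ATCG00650 from -0.015 to 0.35 and ATCG01000 from -0.015 to 1.02. The cause of the other changes was not tested. Same-numbered libraries did not deviate together (r = -0.05 over 15780 genes), so the values showed no pairing by replicate number. Whether libraries were paired by design is not stated in the labels. With the replicate block 18 loci were called, of which 14 were among the 15, and ATCG00180 was lost. Merging loci of the inverted repeat and dividing sums by gene length were not run, because the codes are not paired with genes here. Depth limits genes of which a library held few reads, among them ATCG00330, ATCG01000, PTAC7, AT5G47190 and CAC2.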
